A study of Mus musculus with 2 samples.

Results

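Antigen presentation in visceral fat was described through 10 genes of the major histocompatibility complex (MHC) pathway: the class II genes H2-Aa, H2-Ab1, H2-Eb1, Cd74, Ciita and H2-DMa, and the class I genes H2-K1, H2-D1, B2m and Nlrc5. They were taken by symbol, and all 10 were found among the 32285 genes counted in both libraries. Nuclei came from frozen epididymal white adipose tissue (WAT), the visceral fat pad beside the testis. The mice were male C57BL/6N, 8 weeks old at the start, given high-fat (HF) food for 6 weeks, and for 8 more weeks while they received intraperitoneal injections 3 times a week, of PBS in the HF-PBS group and of homoharringtonine (HHT), a plant alkaloid that blocks translation, in the HF-HHT group. Each group gave 1 library, in which the tissue of 3 mice was pooled. The mice of a library could not be separated, so no difference between the groups has a replicate check, and all intervals given are 95% intervals that cover counting error only.

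MHC class I molecules are carried by nearly all nucleated cells and show peptides made inside the cell to CD8+ T cells, whereas class II molecules are carried mainly by dendritic cells, B cells and macrophages and show peptides taken up from outside to CD4+ T cells. H2-K1 and H2-D1 encode class I heavy chains, B2m encodes their shared light chain, and Nlrc5 encodes the transactivator of class I genes. H2-Aa, H2-Ab1 and H2-Eb1 encode class II chains, although mice of the C57BL/6 background lack the alpha chain with which the product of H2-Eb1 pairs. Cd74 encodes the invariant chain that guards the class II groove, H2-DMa a chain of the molecule that exchanges its peptide, and Ciita the transactivator of class II genes. In WAT, class II genes are known from macrophages and are also described in adipocytes.

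Most of the members lie together in the MHC region of chromosome 17. In GENCODE vM21 on GRCm38, all members are protein-coding genes, with H2-K1 at chr17:33996017-34000347 on the minus strand, H2-DMa at chr17:34119541-34139101 on the plus strand, H2-Ab1 at chr17:34257689-34269419 on the plus strand, H2-Aa at chr17:34282744-34287823 on the minus strand, H2-Eb1 at chr17:34305867-34316674 on the plus strand and H2-D1 at chr17:35262730-35267499 on the plus strand. Outside this region lie Ciita at chr16:10480059-10528418, B2m at chr2:122147686-122153083 and Nlrc5 at chr8:94434356-94527272, all on the plus strand. Cd74 also lies outside it, and no position is given for it. H2-Eb1, H2-DMa, Ciita, B2m and Nlrc5 overlap a gene on the other strand, H2-DMa one on its own strand, and Cd74 and Nlrc5 a microRNA gene on theirs, and the sources used here do not give whether the counting used the strand. Of the stretches of 90 bases in their transcripts, 4.25% in H2-D1 and 1.54% in H2-K1 also occurred in transcripts of another gene, and 0 in the other members, so that reads of these heavy chains can be shared with other heavy chain genes.

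Promoters of MHC genes are known for a shared module whose X2 and Y boxes lie at a fixed distance. The 4 promoters shown here held sequences like both boxes, 19 to 20 bases apart, in class I members and in the class II member H2-Eb1. RefSeq promoters on GRCm38.p6 were matched for 6 of the 10 members. A search on both strands of the 250 bases before the start for TGANG followed after 19 to 20 bases by ATTGG, an inverted CCAAT box, found the pair in B2m, H2-K1, H2-Eb1 and H2-D1, in each case on the strand of the gene. H2-Aa held an ATTGG without the pair, and the H2-DMa starts held no pair. The pair occurred on either strand in 0.606% of 32851 promoters and ATTGG alone in 33.8%, and its letters were chosen with these sequences in view. The 5′ to 3′ sequences on the gene's strand follow, with TGANG and ATTGG in capitals. The stretches lie at chr2:122147584-122147653 (plus strand), chr17:34000348-34000413 (minus strand), chr17:34305759-34305827 (plus strand) and chr17:35262968-35263037 (plus strand).
B2m: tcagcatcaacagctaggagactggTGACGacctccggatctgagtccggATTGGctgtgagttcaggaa
H2-K1: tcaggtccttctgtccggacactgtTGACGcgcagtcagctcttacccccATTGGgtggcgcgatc
H2-D1: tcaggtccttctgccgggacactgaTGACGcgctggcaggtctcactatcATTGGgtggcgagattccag
H2-Eb1: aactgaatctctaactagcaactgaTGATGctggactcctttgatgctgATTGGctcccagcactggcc
The spacing was 20 bases in the class I genes B2m, H2-K1 and H2-D1 and 19 bases in the class II gene H2-Eb1.

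The libraries held 76197757 (HF-PBS) and 73313558 (HF-HHT) counted molecules (UMIs), and 6650 and 6442 nuclei were kept, with medians of 4311 and 3978.5 UMIs. They shared 13 barcodes, 0.195% and 0.202% of the nuclei. Nuclei were grouped into classes by markers other than the members, so that macrophages numbered 3574 and 2222, and were divided into monocyte-like, lipid-associated and Lyve1 resident states and a state with F13a1, Ms4a4a and Mrc1 among its leading genes, called F13a1+ here. This last state matched none of the state marker lists. F13a1 and Ms4a4a were also leading genes of the Lyve1 resident state, so the name does not set these states apart. Levels are given in CPM, the counts of a gene scaled to the total UMIs of its class in a library. Free RNA, the profile of barcodes too shallow to hold a nucleus, contained the members too, with class II sums of 1120.3 and 1591 CPM and class I sums of 1935 and 3527 CPM for HF-PBS and HF-HHT. From markers of other cells, free RNA made up at most 26.7% and 5.23% of the UMIs in dendritic nuclei, 20.9% and 12.7% in T cells, 10.6% and 6.51% in monocyte-like macrophages and 5.49% and 3.05% in adipocytes. A class whose members lie below free RNA therefore cannot be said from its level alone to express them. Nor does such a level mean that they are absent, since free RNA is only a part of the UMIs of a class. Subtraction of free RNA at its upper limit left 847 of 942 CPM of the class II sum in F13a1+ macrophages of HF-PBS. It left 444 of 544 CPM in mesothelial nuclei, but 41.0 of 275 CPM in T cells of that library.

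The question of which nuclei of the fat pad carried each set of genes was addressed first. Class II genes were highest in dendritic nuclei, monocyte-like macrophages and B cells, while class I genes were highest in mesothelial nuclei, monocyte-like macrophages, T cells and NK cells. In HF-PBS, the summed class II level was 3496 CPM (3339.9 to 3657) in dendritic nuclei, 3020.3 CPM (2942 to 3099.9) in monocyte-like macrophages, 1679.5 CPM (1613 to 1748) in B cells and 942 CPM (916 to 969) in F13a1+ macrophages, and the intervals of these 4 neighbours did not overlap. Blood endothelial, mesothelial and Lyve1 resident nuclei followed at 615 to 479 CPM with overlapping intervals, then NK cells, T cells and lipid-associated macrophages at 331 to 265 CPM, and adipocytes were lowest at 98.4 CPM (84.8 to 114). All classes below B cells lay under the class II level of free RNA.

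**Figure D1:**
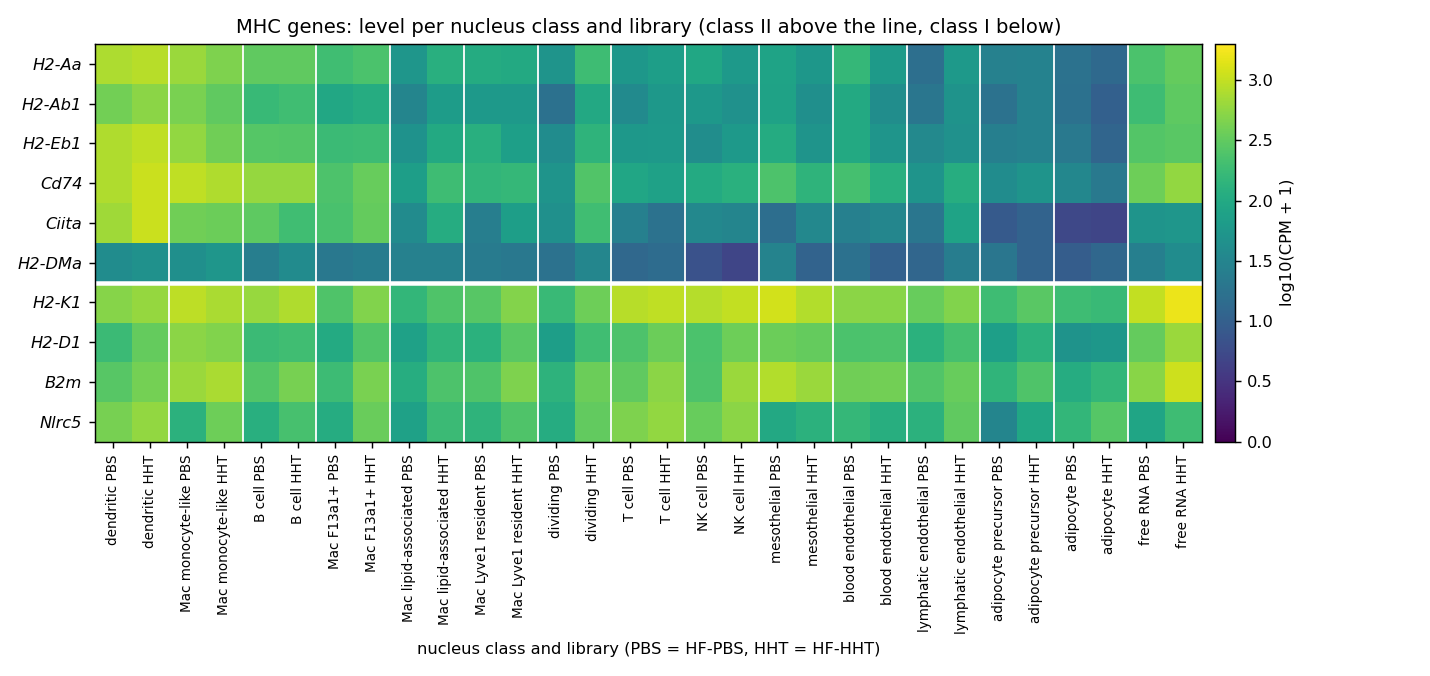
Level of each member (rows) in each nucleus class and library (columns) as log10(CPM + 1), with class II genes above the white line, class I genes below it and free RNA in the last columns. Class II genes are brightest in dendritic nuclei, monocyte-like macrophages and B cells, whereas class I genes are bright in most classes.

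Ciita was more restricted than the genes it controls. In HF-PBS it reached 675 CPM (608 to 748) in dendritic nuclei, 379 CPM (351 to 408) in monocyte-like macrophages, 302 CPM (275 to 332) in B cells and 222 CPM (209 to 235) in F13a1+ macrophages, each apart from the next. In every other class it was at most 44.2 CPM, under the 50.4 CPM of free RNA, and in adipocytes it was 4.26 CPM from 8 UMIs. With each nucleus thinned to 1000 UMIs, a Ciita UMI was found in 42.3% (34.2 to 50.6) of HF-PBS nuclei and 56.7% (46.3 to 66.7) of HF-HHT nuclei of the dendritic class, against 0.690% (0.0175 to 3.78) of HF-PBS nuclei and 0.356% (0.0734 to 1.04) of HF-HHT nuclei among adipocytes, a cell type without professional presentation, and the unthinned shares were 70.4% and 73.1% against 4.11% and 3.20%. Median depths were 3186 and 2743.5 UMIs for dendritic nuclei and 13092 and 11613 for adipocytes.

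Class I levels were spread more evenly over the tissue. In HF-PBS the summed class I level ranged from 417 CPM (406 to 428) in lipid-associated macrophages to 2464 CPM (2378 to 2553) in mesothelial nuclei, and in HF-HHT from 648 CPM (633 to 664) in adipocytes to 2537 CPM (2348 to 2738) in NK cells, with NK cells, T cells and monocyte-like macrophages not apart from one another. Of the named classes in HF-PBS, mesothelial nuclei and monocyte-like macrophages alone lay above the 1935 CPM of free RNA. In HF-HHT no class lay above its 3527 CPM. Nlrc5 followed another order, with T cells (459 CPM (422 to 499)), dendritic nuclei (421 CPM (368 to 479)) and NK cells (342 CPM (261 to 440.3)) above all other classes in HF-PBS and adipocyte precursors lowest at 31.1 CPM (26.4 to 36.3). These 3 highest classes overlapped in their intervals in both libraries.

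**Figure D2:**
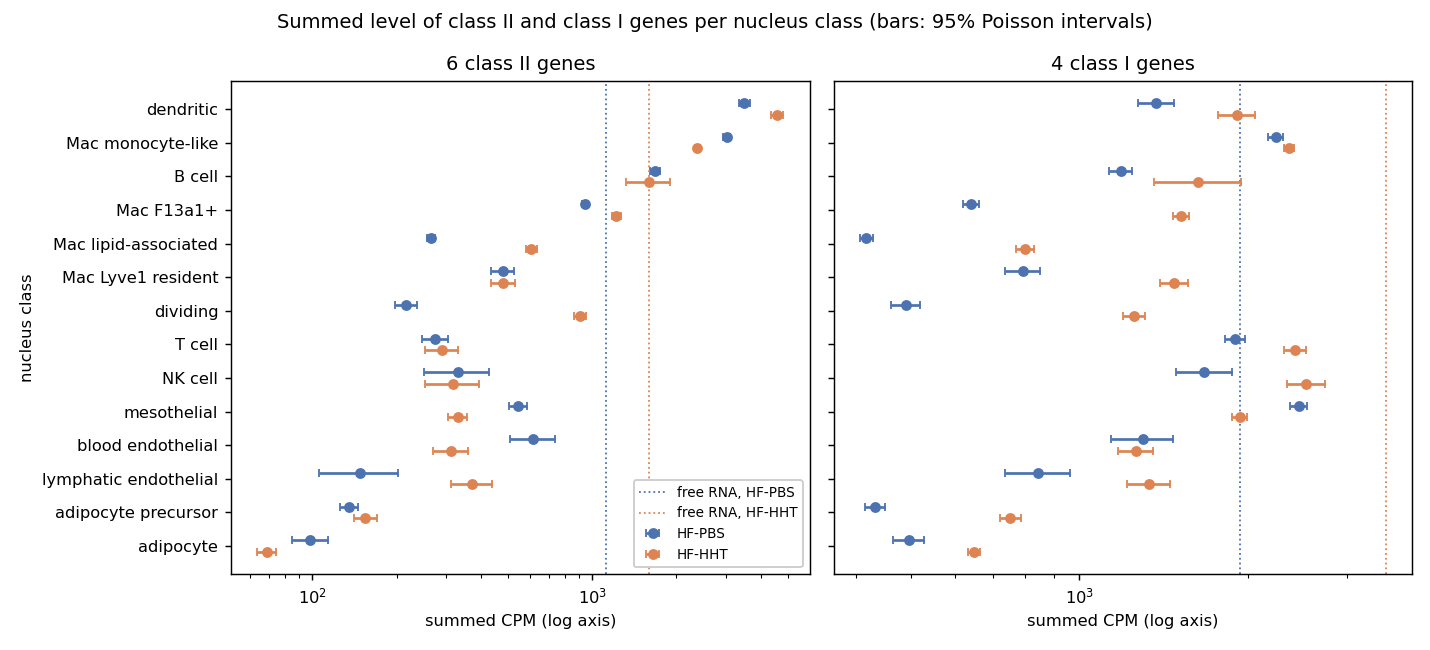
Summed CPM (log axis) of the 6 class II genes and the 4 class I genes per nucleus class in HF-PBS (blue) and HF-HHT (orange), with 95% Poisson intervals as bars and free RNA of each library as dotted lines. Class I sums are higher in HF-HHT in most classes, while class II sums are higher in lipid-associated macrophages (265 and 607 CPM) and lower in monocyte-like macrophages (3020 and 2372 CPM).

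Next, macrophages of the libraries were compared, since they held 67.6% and 65.0% of the class II UMIs of all kept nuclei and 51.5% and 42.3% of the class I UMIs. Taken as 1 class, macrophages had more of both sets in HF-HHT. The class II sum was 684 CPM (673 to 695) in HF-PBS and 1373 CPM (1351 to 1396) in HF-HHT, a log2 ratio of HF-HHT over HF-PBS of 1.01 (0.97 to 1.04), and the class I sum was 649 CPM (638 to 659) in HF-PBS and 1577 CPM (1553 to 1601) in HF-HHT, a log2 ratio of 1.28 (1.25 to 1.31). All members but H2-DMa, 9 of 10, were at least 1.5-fold higher in HF-HHT and 0 were at least 1.5-fold lower, where 25.8% and 8.27% of the 14360 genes measured in macrophages passed these sizes. The highest ratios were those of Nlrc5 at 1.66 (1.58 to 1.74), B2m at 1.42 (1.36 to 1.48) and H2-D1 at 1.26 (1.18 to 1.33). H2-DMa had 26.4 CPM (24.3 to 28.7) in HF-PBS and 35 CPM (31.5 to 38.7) in HF-HHT.

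The makeup of the macrophage class also differed. Monocyte-like nuclei, which had the highest class II sum of the 4 states in both libraries, were 10.4% of macrophages in HF-PBS (371 nuclei) and 36.5% in HF-HHT (811), whereas lipid-associated nuclei were 53.3% and 31.4%. When the 4 states were given the same weights in both libraries, the class II sum was 1120 and 1194 CPM, a log2 ratio of 0.09, and the class I sum was 928 and 1409 CPM, a log2 ratio of 0.60. At the same weights Nlrc5 had a ratio of 1.44 and B2m of 0.71, whereas H2-Aa, H2-Ab1 and H2-Eb1 turned to -0.01, -0.07 and -0.18. These weights differ among the states, and the shares of all 4 states were set together, so the part of any 1 state was not separated.

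**Figure D3:**
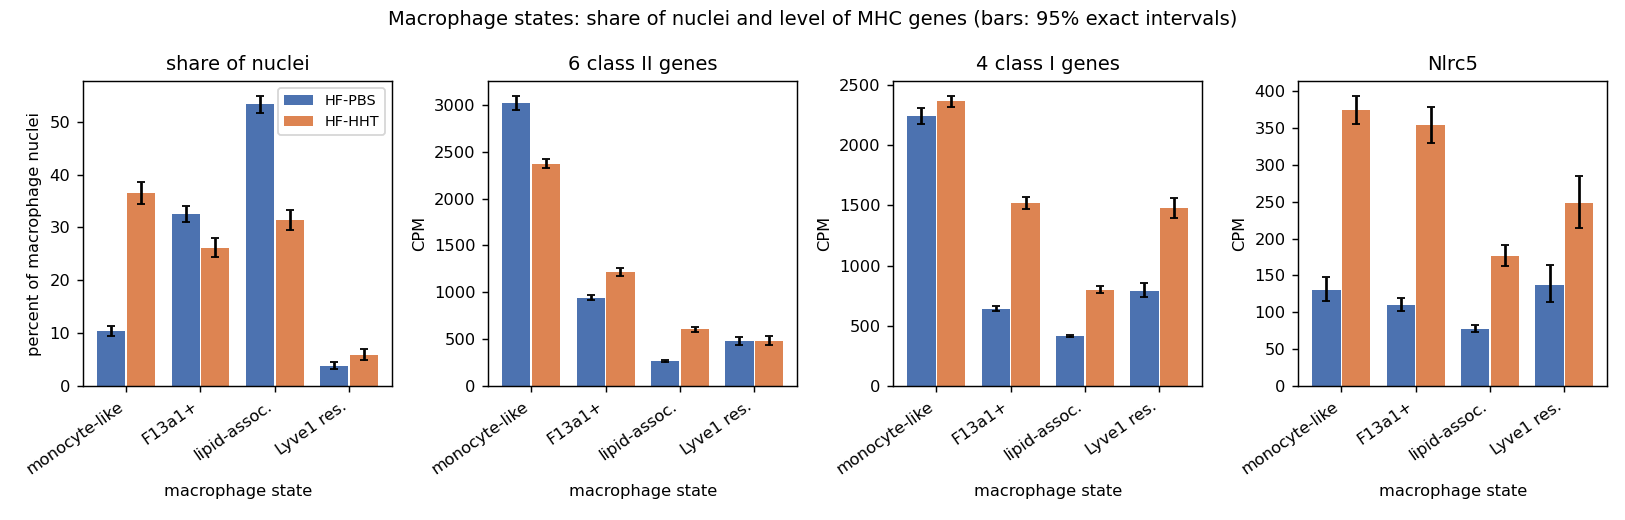
Share of macrophage nuclei, summed CPM of class II and class I genes, and CPM of Nlrc5 in the 4 macrophage states of HF-PBS (blue) and HF-HHT (orange), with 95% exact intervals as bars. In HF-HHT, class II is lower in the monocyte-like state, higher in the F13a1+ and lipid-associated states and level in the Lyve1 resident state, and Nlrc5 is higher in HF-HHT in all 4.

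Monocyte-like macrophages had the class II chains at lower levels in HF-HHT and Nlrc5 at a higher level. H2-Aa was 630.3 CPM (595 to 667) in HF-PBS and 462 CPM (441 to 484) in HF-HHT, a log2 ratio of -0.45 (-0.55 to -0.34). H2-Eb1 was 585 CPM (551 to 621) in HF-PBS and 383 CPM (364 to 403) in HF-HHT, a ratio of -0.61 (-0.73 to -0.50). H2-Ab1 and Cd74 were lower as well, with ratios of -0.46 (-0.59 to -0.33) and -0.25 (-0.33 to -0.16). Ciita, the transactivator of class II genes, had 379 CPM (351 to 408) in HF-PBS and 357 CPM (339 to 377) in HF-HHT. Its ratio of -0.08 held 0 in its interval, but it was below 0 in all 9 alternatives, from -0.43 to -0.12. H2-DMa went the other way, at 0.32 (-0.06 to 0.71). Its interval held 0, but it stayed above 0 in all 9 alternatives, from 0.17 to 0.33. Nlrc5 was higher, from 131 to 374 CPM, a ratio of 1.52 (1.32 to 1.72), and B2m was higher at 0.26 (0.16 to 0.36). H2-K1, at -0.33 (-0.41 to -0.24), and H2-D1, at -0.16 (-0.27 to -0.04), had no stable direction, since they turned above 0 in 4 and 5 of 9 alternatives, up to 0.14 and 0.54. Of the 10 members, Nlrc5 alone was at least 1.5-fold higher and H2-Eb1 alone at least 1.5-fold lower, beside 19.8% and 13.3% of all measured genes. The class I sum, at 0.08 (0.02 to 0.13), ranged from -0.000654 to 0.536 over the processing alternatives, and the class II sum, at -0.35 (-0.40 to -0.30), from -0.51 to -0.23. Nlrc5 is part of the class I sum, and the other 3 class I genes together had a ratio of -0.085 (-0.14 to -0.03). The 7 B-cell markers summed to 174 CPM in this state of HF-PBS and 50.7 CPM in HF-HHT (0 and 1 of them at 0), and the 8 dendritic markers to 58.5 and 23.3 CPM (1 and 2 at 0). Without nuclei holding a UMI of either list the class II ratio was -0.29.

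F13a1+ macrophages showed a class I difference with little on the class II side. The class I sum was 640.3 CPM (619 to 662) in HF-PBS and 1516 CPM (1467 to 1566) in HF-HHT, a log2 ratio of 1.24 (1.18 to 1.31), and all 4 class I members were at least 1.5-fold higher, with Nlrc5 at 1.68 (1.53 to 1.84) and H2-D1 at 1.30 (1.13 to 1.47). Of the class II members, 0 of 6 passed 1.5-fold, with Ciita at 0.56 (0.42 to 0.69) and Cd74 at 0.55 (0.42 to 0.68) closest to it and H2-Eb1 at 0.06 (-0.11 to 0.22), a value that turns below 0 with either scaling alternative. In all, 4 of 10 members were higher and 0 lower, where 22.6% and 7.55% of all genes were.

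Lipid-associated macrophages, the state that takes up lipid around dying adipocytes, had more of both sets in HF-HHT, starting from the lowest levels of the macrophage states. The class II sum was 265 CPM (256 to 274) in HF-PBS and 607 CPM (581 to 633) in HF-HHT, a log2 ratio of 1.20 (1.12 to 1.27), and the class I sum 417 CPM (406 to 428) in HF-PBS and 799.7 CPM (771 to 829) in HF-HHT, a ratio of 0.94 (0.88 to 1.01). Ciita had the highest ratio, 1.55 (1.36 to 1.75), from 37.6 to 110.4 CPM, followed by Cd74 at 1.41 (1.26 to 1.56). All members but H2-DMa (-0.00 (-0.34 to 0.32)) passed 1.5-fold, 9 of 10 higher and 0 lower, against 20% and 6.13% of all genes. With TMM and median-of-ratios scaling H2-K1, at 0.69, came to 0.50 and 0.53, under that size, and 8 of 10 were higher. Both clusters of this state showed it, with class II sums of 372 and 879 CPM in the larger cluster and 139 and 266 CPM in the smaller one. The subtraction of free RNA left the class II ratio at 1.39.

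Lyve1 resident macrophages, named for a receptor of tissue-resident macrophages, had class II sums of 479 CPM (435 to 526) in HF-PBS and 480.1 CPM (433 to 530.4) in HF-HHT, but the ratio ranged from -0.96 to 0.23 over 9 alternatives and was above 0 in 2 of them. Ciita was higher at 1.47 (0.75 to 2.24), from 23 and 56 UMIs (0.00474 without nuclei holding a B-cell or dendritic-cell marker), and H2-Eb1 lower at -0.72 (-1.21 to -0.25). The class I sum had a ratio of 0.90 (0.76 to 1.03). Members at least 1.5-fold higher numbered 5 of 10 and lower 1, beside 26% and 11.7% of all genes. This state held 136 and 132 nuclei, and its class I ratio turned to -0.21 when every barcode with at least 500 UMIs entered the clustering and to -0.20 when doublets were kept, so its direction rests on these choices.

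Dendritic nuclei, the professional presenting cells of the tissue, had more of both sets in HF-HHT by similar factors. The class II sum was 3496 CPM (3339.9 to 3657) in HF-PBS and 4591 CPM (4368 to 4822) in HF-HHT, a log2 ratio of 0.39 (0.30 to 0.49), and the class I sum 1371 CPM (1274 to 1473) in HF-PBS and 1909 CPM (1766 to 2060.3) in HF-HHT, a ratio of 0.48 (0.32 to 0.63). Ciita was higher, from 675 to 1073 CPM, a ratio of 0.67 (0.46 to 0.88), and H2-D1 had the highest at 0.90 (0.49 to 1.30). Ciita was under 1.5-fold in 2 of 9 alternatives, down to 0.35. Ciita and H2-D1 were the 2 of 10 members at least 1.5-fold higher, and 0 were lower, where 18.8% and 13.5% of all genes passed, so their count is near that of all genes. The upper limits of free RNA here were 26.7% of the HF-PBS and 5.23% of the HF-HHT UMIs. They come from different marker lists, with 5 lists usable in HF-PBS and 9 in HF-HHT, so no difference in free RNA can be read from them. B-cell markers were at 295 and 31.7 CPM. Subtraction at these unlike limits left ratios of 0.16 for class II and 0.67 for class I. The part of free RNA in the comparison was otherwise not tested.

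The B-cell class held 740 nuclei of HF-PBS and 44 of HF-HHT, so that the class II UMIs they held went from 11% to 0.551% of all, while their level per UMI of the class was 1679.5 CPM (1613 to 1748) in HF-PBS and 1591 CPM (1323 to 1897) in HF-HHT, which did not differ beyond counting error. Cd74 was 602 CPM in HF-PBS and 603 in HF-HHT. Ciita was 302 CPM (275 to 332) in HF-PBS and 192 CPM (108 to 317) in HF-HHT, a log2 ratio of -0.65 (-1.5 to 0.09) from 430 and 15 UMIs. H2-DMa, B2m and Nlrc5 were at least 1.5-fold higher, 3 of 10, and Ciita lower, 1 of 10, beside 31% and 19.6% of all genes, and H2-DMa rests on 3 UMIs in HF-HHT.

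Dividing nuclei, which expressed macrophage markers at 2134 and 2901 CPM, had the highest class II ratio of any class. The class II sum was 216 CPM (197 to 236) in HF-PBS and 906 CPM (859 to 954) in HF-HHT, a log2 ratio of 2.07 (1.92 to 2.22), and the class I sum 489 CPM (461 to 519) in HF-PBS and 1249.9 CPM (1195 to 1307) in HF-HHT, a ratio of 1.35 (1.25 to 1.46). H2-Ab1 went from 15.8 to 98.3 CPM (2.64 (2.10 to 3.21)) and Cd74 from 50.1 to 256 CPM (2.35 (2.04 to 2.67)). All 10 members were at least 1.5-fold higher and 0 lower, where 19.2% and 9.28% of all genes were. Over the alternatives the class II ratio stayed between 1.92 and 2.48. Which macrophage state the dividing nuclei of each library came from was not tested.

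T cells and NK cells had low class II sums that did not differ beyond counting error, at 275 CPM in HF-PBS and 290.0 in HF-HHT for T cells and 331 CPM in HF-PBS and 318 in HF-HHT for NK cells, both under free RNA. Their class I sums were higher in HF-HHT, with log2 ratios of 0.35 (0.27 to 0.44) and 0.60 (0.40 to 0.81). B2m led in both, at 0.77 (0.56 to 0.97) in T cells and 1.43 (0.93 to 1.95) in NK cells, where it went from 239 to 643 CPM. H2-K1 had ratios of 0.10 (-0.04 to 0.24) and 0.20 (-0.10 to 0.50), which hold 0. In T cells, B2m was the 1 of 10 members at least 1.5-fold higher and Ciita, from 32 and 12 UMIs, the 1 lower, beside 20.9% and 8.46% of all genes. In NK cells, of 8 measured members 3 were higher (H2-D1, B2m, Nlrc5) and 1 lower (H2-Aa, 16 and 15 UMIs), beside 18.9% and 13%, and H2-Aa turned from -0.67 to 0.92 without marker-holding nuclei and to 0.35 with each nucleus weighing the same. Nlrc5 was already high in T cells, where 36.5% (32.2 to 41.0) of HF-PBS nuclei and 36.0% (30.6 to 41.7) of HF-HHT nuclei held a UMI at 1000 UMIs, while the unthinned shares were 48.5% and 57.8%. Thinning left out 92 and 69 T cells, and the level of Nlrc5 went from 459 to 587 CPM, a log2 ratio of 0.35 (0.17 to 0.54), so that no order was read from the thinned shares.

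Adipocytes and their precursors were compared next, as the parenchyma of the fat pad. Nlrc5 was higher in both, and the class II sum was lower in adipocytes, from 98.4 to 68.6 CPM. Adipocytes had Nlrc5 at 152 CPM (135 to 171) in HF-PBS and 265 CPM (255 to 275) in HF-HHT, a log2 ratio of 0.80 (0.62 to 0.98), and B2m at 109 CPM (94.2 to 125) in HF-PBS and 154 CPM (147 to 162) in HF-HHT, while H2-K1 (-0.11 (-0.27 to 0.06)) and H2-D1 (0.21 (-0.11 to 0.55)) held 0 in their intervals. H2-Ab1, H2-Eb1 and Cd74 were at least 1.5-fold lower, with Cd74 at 32.5 CPM (24.8 to 41.7) in HF-PBS and 20.5 CPM (17.8 to 23.5) in HF-HHT, while H2-Aa, Ciita and H2-DMa held 0 in their intervals. In all, 1 of 10 members was higher and 3 were lower, where 35.9% and 12.2% of all genes were. All class II members were below free RNA in adipocytes, and the 9 macrophage markers summed to 133 and 90.4 CPM there, 0 of them at 0, so the part of other cells' RNA in these class II values was not tested. Since adipocytes numbered 146 and 843, they held 7.34% of the Nlrc5 UMIs of all kept nuclei in HF-PBS and 31.9% in HF-HHT.

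Adipocyte precursors had all 4 class I members at least 1.5-fold higher. Nlrc5 was 31.1 CPM (26.4 to 36.3) in HF-PBS and 90.3 CPM (79.5 to 102) in HF-HHT, a log2 ratio of 1.54 (1.25 to 1.83), and at 1000 UMIs per nucleus it was found in 2.54% (1.53 to 3.93) of HF-PBS nuclei and 8.40% (6.35 to 10.8) of HF-HHT nuclei. B2m had a ratio of 0.80 (0.65 to 0.96), H2-D1 of 0.84 (0.63 to 1.06) and H2-K1 of 0.61 (0.47 to 0.74), which was past 1.5-fold in 4 of 10 alternatives and at 0.40 and 0.44 with the scaling alternatives. With H2-Ab1, 5 of 10 members were higher, and H2-DMa was the 1 lower (-0.87 (-1.52 to -0.26)), beside 23.1% and 7.74% of all genes. The class II sum was 135 CPM (125 to 146) in HF-PBS and 155 CPM (141 to 170) in HF-HHT, with a ratio of 0.19 (0.02 to 0.37) that was below 0 in 2 of 10 alternatives, at -0.01 in the lowest.

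Mesothelial and blood endothelial nuclei had less class II in HF-HHT. Mesothelial nuclei, the lining of the fat pad, had class II sums of 544 CPM (504 to 586) in HF-PBS and 331 CPM (306 to 358) in HF-HHT and class I sums of 2464 CPM (2378 to 2553) in HF-PBS and 1932 CPM (1869.9 to 1995) in HF-HHT, the one class in which the class I sum was lower beyond counting error. Over the alternatives their class II log2 ratio, -0.72, ranged from -1.24 to -0.10 and their class I ratio, -0.35, from -0.60 to -0.0962, the weakest of both without upper limits on genes and UMIs. H2-K1 was 1178 CPM in HF-PBS against 831 in HF-HHT. H2-Eb1 had a ratio of -1.11 (-1.5 to -0.72), whereas Ciita was higher at 1.21 (0.43 to 2.05) from 18 and 64 UMIs. Among mesothelial members 1 of 10 was higher and 4 were lower, beside 23.9% and 13.2% of all genes, and 1 of these 4, Cd74, turned from -0.74 to 0.03 without upper limits. Blood endothelial nuclei, 51 and 205 in number, had class II sums of 615 CPM (508 to 737) in HF-PBS and 313 CPM (270.4 to 359.5) in HF-HHT, with 0 of 9 measured members higher and 4 (H2-Aa, H2-Ab1, H2-Eb1, Cd74) lower, beside 23.3% and 14.7%. In both classes the class II levels lay under free RNA. Lymphatic endothelial nuclei, 49 and 195 in number with median depths of 4891 and 1263 UMIs, went the other way. Their class II sum rose from 148 CPM (106 to 203) to 372 CPM (313 to 439.8), on 39 and 138 UMIs. Of 9 members, 6 were higher and 0 lower, beside 22.8% and 13.3%. These sums also lay under free RNA, which made up at most 5.81% and then 12.2% of the UMIs. Its subtraction left the class II sum higher, going from 83.3 to 178 CPM. H2-Eb1, H2-K1 and B2m then came out lower under HHT, H2-Eb1 going from 19.3 to 10.7 CPM. The part of free RNA in this rise was otherwise not tested.

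Class I was then set against class II within each class, by the ratio of their UMIs, which does not depend on scaling. Nlrc5 counts among the class I UMIs and Ciita among the class II UMIs, and their part in the shifts was not separated. The ratio of class II to class I shifted towards class I in HF-HHT in most classes. In F13a1+ macrophages it was 1.47 in HF-PBS and 0.804 in HF-HHT, a log2 shift of -0.87 (-0.97 to -0.78), and in monocyte-like macrophages 1.35 and 1.0, a shift of -0.43 (-0.50 to -0.35). Lyve1 resident macrophages shifted by -0.89 (-1.14 to -0.65), adipocytes by -0.91 (-1.16 to -0.64) and adipocyte precursors by -0.61 (-0.80 to -0.41). The opposite shift was found in lipid-associated macrophages (0.26 (0.15 to 0.36)), dividing nuclei (0.72 (0.53 to 0.90)) and lymphatic endothelial nuclei (0.67 (0.09 to 1.27)). Dendritic nuclei kept a ratio of 2.55 and 2.4, a shift of -0.08 (-0.27 to 0.10) that holds 0.

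**Figure D4:**
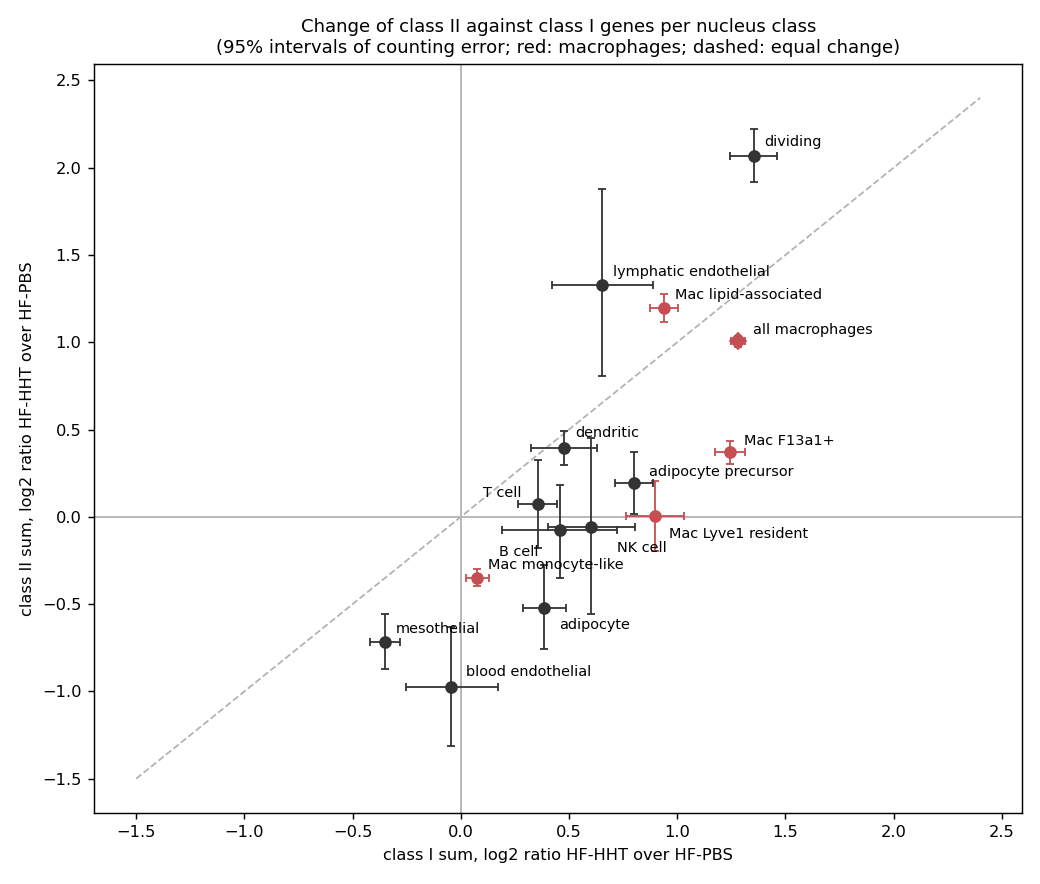
Log2 ratio of HF-HHT over HF-PBS of the summed class II genes (vertical) against that of the summed class I genes (horizontal) per nucleus class, with 95% intervals of counting error, macrophages in red and the line of equal change dashed. Lipid-associated macrophages, dividing and lymphatic endothelial nuclei lie above the line, and the F13a1+ state lies below it at 1.24 and 0.37.

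Over 14 classes, with macrophages taken as their 4 states, the interval of the class I ratio lay above 0 in 12, below 0 in 1 and held 0 in 1, while that of the class II ratio lay above 0 in 6, below 0 in 4 and held 0 in 4. The class I sum includes Nlrc5. Without it, the other 3 class I genes had ratios of -0.085 (-0.14 to -0.03) in monocyte-like macrophages and 0.16 (0.04 to 0.28) in adipocytes. Their ratios were 1.13 (1.06 to 1.21) in F13a1+ and 0.88 (0.80 to 0.95) in lipid-associated macrophages. Among single members Nlrc5 was the most uniform, above 0 in 13 of 14 classes and below in 0, with a range of -0.45 to 1.68. B2m was above 0 in 11 classes and below in 1, and H2-K1 above in 6 and below in 2. Ciita was above 0 in 7 of 13 classes in which it was measured and below in 0, whereas H2-Eb1 was above in 3 and below in 5 of 14. Such tallies were not made for genes outside the members. A typical gene leaned upwards as well, with a median ratio above 0 in every class, from 0.01 in NK cells to 0.32 in adipocytes. A regulator and its targets could differ in direction, as in mesothelial nuclei. There the ratio of Ciita was 1.21 and that of the other 5 class II genes together -0.83 (-0.99 to -0.67). Free RNA itself had log2 ratios of 0.87 for the class I sum, 1.09 for B2m, 1.11 for Nlrc5 and 0.51 for the class II sum. All class I sums of HF-HHT lay under its 3527 CPM, and the part of free RNA in these tallies was not tested.

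**Figure D5:**
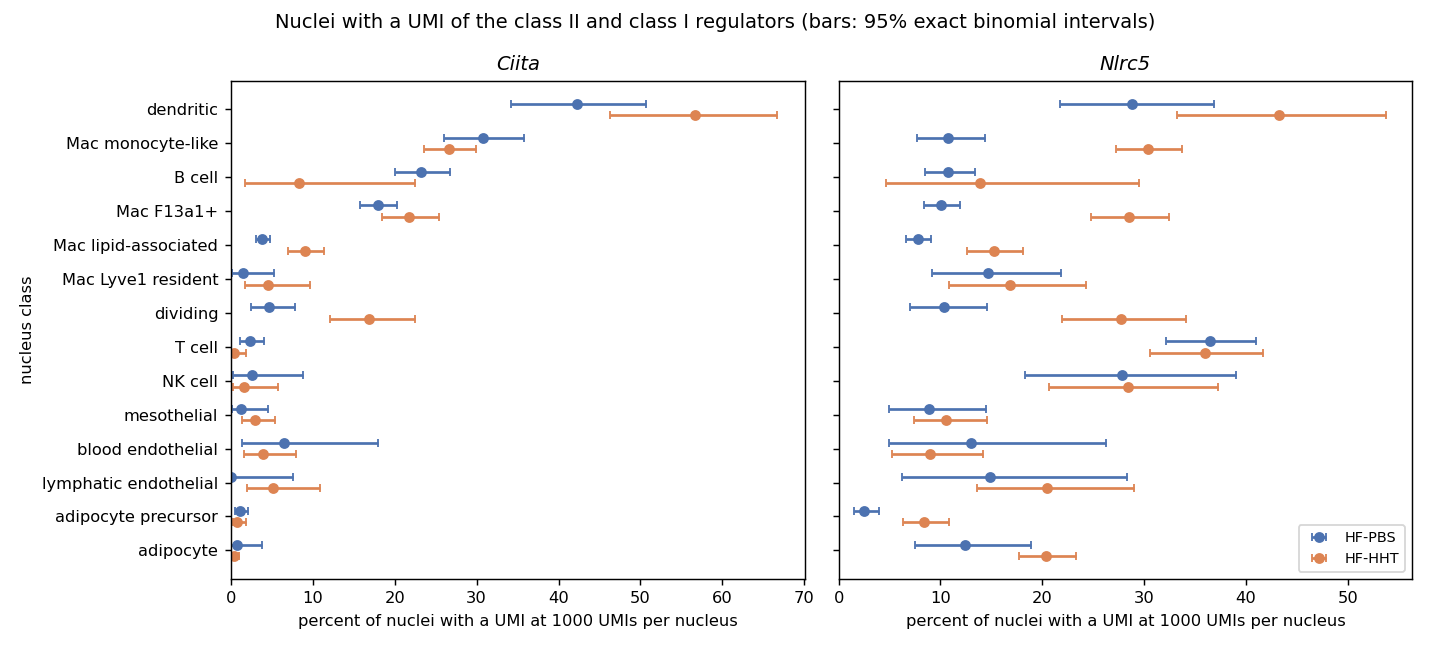
Percent of nuclei with a UMI of Ciita (left) and of Nlrc5 (right) per nucleus class after thinning each nucleus to 1000 UMIs, in HF-PBS (blue) and HF-HHT (orange), with 95% exact binomial intervals. Nlrc5 goes from 10.7% to 30.4% of monocyte-like macrophages, while Ciita goes from 30.8% to 26.7% there.

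At equal depth, the share of nuclei with a UMI was compared for the regulators and for H2-Aa. Nlrc5 was found in 10.7% (7.73 to 14.4) of HF-PBS nuclei and 30.4% (27.2 to 33.7) of HF-HHT nuclei of the monocyte-like state and in 10.0% (8.36 to 11.9) of HF-PBS nuclei and 28.5% (24.8 to 32.5) of HF-HHT nuclei of the F13a1+ state. Ciita was found in 3.85% (3.03 to 4.81) of HF-PBS nuclei and 9.0% (6.97 to 11.4) of HF-HHT nuclei of the lipid-associated state and in 4.64% (2.49 to 7.81) of HF-PBS nuclei and 16.8% (12.1 to 22.4) of HF-HHT nuclei of the dividing class. For H2-Aa the share in the monocyte-like state was 36.8% (31.8 to 42) of HF-PBS nuclei and 25% (22.1 to 28.2) of HF-HHT nuclei. The libraries' intervals were apart in these 5 comparisons, which were named after their values were seen. Over 14 classes they were apart and higher in HF-HHT in 2 for Ciita, 5 for Nlrc5 and 1 for H2-Aa, lower in 1 for H2-Aa, and overlapped in the other 12, 9 and 12. No such count was made for genes outside the members, so how far these exceed it was not tested. Nuclei under 1000 UMIs, 12 or fewer per library in the monocyte-like state and 31 or fewer in the F13a1+ state, were left out.

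The other genes of the pathway were counted in 6 lists without the members, to be read beside the 25.8% of all genes in macrophages that were at least 1.5-fold higher and the 8.27% lower. In macrophages, all 6 further class I heavy chain genes were at least 1.5-fold higher in HF-HHT, as were 12 of 13 genes of class I loading and 7 of 8 genes of class I control and the interferon-gamma route, with 0 lower in each. Psmb9, a subunit of the immunoproteasome that cuts peptides for class I, went from 7.16 to 38.0 CPM (2.41 (2.14 to 2.69)), and the nonclassical heavy chain gene H2-T23 from 7.95 to 31.8 CPM (2.0 (1.73 to 2.27)). Jak1, a kinase of the interferon route, was near level at -0.10 (-0.16 to -0.04). The median log2 ratios of these lists were 1.77, 2.0 and 0.90, where the median of all genes was 0.16. The class II lists lay nearer to these shares, with 2 of 6 genes of class II presentation higher and 1 lower at a median of 0.02, and 3 of 8 genes of class II control higher at a median of 0.17. Ifi30, the reductase that opens disulfide bonds of antigens, was higher (1.40 (1.24 to 1.57)), and H2-Ob, a brake on peptide exchange, was lower (-1.94 (-3.33 to -0.80)) from 54 and 7 UMIs. H2-Ob lay below free RNA, which held 22.4 and 3.36 CPM of it, as did Psmb9 (17.6 and 48.8 CPM in free RNA) and H2-T23 (24.5 and 74.2 CPM), and the part of free RNA in these 3 differences was not tested. Of 7 T-cell co-signals, 6 were higher, such as Icam1, an adhesion molecule, from 18.8 to 105 CPM.

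In monocyte-like macrophages most genes of the class I lists were higher as well. All 6 further heavy chain genes, 11 of 13 loading genes and 6 of 8 genes of class I control were at least 1.5-fold higher, beside 19.8% of all genes, and medians were 1.14, 1.41 and 1.33 against 0.08 for all genes. Cd274, which encodes the inhibitory ligand PD-L1, went from 65.4 to 428 CPM (2.71 (2.45 to 2.99)). The costimulatory gene Cd86 was lower at -0.52 (-0.72 to -0.33), and so was Lgmn, a protease of the class II pathway, at -0.74 (-0.86 to -0.63). Of the 5 measured genes of class II presentation, 1 was higher and 2 were lower.

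Dendritic nuclei had 2 of 4 heavy chain, 7 of 12 loading and 3 of 7 class I control genes at least 1.5-fold higher, with 0 lower, beside 18.8% and 13.5% of all genes. Of the T-cell co-signals, Cd274 had a ratio of 1.77 (1.25 to 2.30) here, and Pdcd1lg2, which encodes the inhibitory ligand PD-L2, went from 7 to 33 UMIs (2.88 (1.68 to 4.30)). Of the class II control genes, 0 of 4 passed 1.5-fold in either direction. In adipocytes, 4 of 5 heavy chain and 7 of 13 loading genes were higher and 0 lower, beside 35.9% and 12.2% of all genes. Irf1, an interferon-induced transcription factor of class I genes, went from 5.32 to 67.6 CPM (3.67 (2.78 to 4.73)) and the nonclassical H2-T22 from 6.92 to 32.3 CPM (2.22 (1.43 to 3.15)). Ifngr1, which encodes a chain of the interferon-gamma receptor, was lower in adipocytes at -0.68 (-0.81 to -0.56).

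Finally, the patterns of the members were compared over 31 points, each a class of at least 30 nuclei in 1 library, as a description. Points of 1 library share its depth and free RNA. Pearson's r of log2(CPM + 10) was 0.645 to 0.977 within class II (15 pairs, median 0.904), 0.466 to 0.942 within class I (6 pairs, median 0.675) and 0.0118 to 0.624 between them (24 pairs, median 0.428). Among 11868 further genes, those most like the class II sum were Ptpn6 (r = 0.852), a phosphatase of blood cells, Fgr (0.832), a Src-family kinase of myeloid cells, Pld4 (0.806), Mob1a (0.804) and Dapp1 (0.797), an adaptor of B-cell signalling. Most like the class I sum were Ly6e (0.878) and Gbp8 (0.852), both from families induced by interferon, and the actin cytoskeleton genes Pfn1 (0.842), Actb (0.836) and Tmsb4x (0.828).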

How the data were processed

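Single-nucleus libraries of epididymal WAT (10x Genomics 3' v3.1, nuclei sorted by DAPI) were available from HF-PBS and HF-HHT mice. Per the labels, the authors counted UMIs with Cell Ranger 5.0.0 on mm10, and the deposited counts are whole numbers for every gene and barcode, with no calling of nuclei. The sources used here do not give whether introns were counted.

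Nuclei were called by depth (3000 expected nuclei) and by comparing barcodes of 500 UMIs or more with free RNA (barcodes ranked 45000 to 90000, 10000 simulations, false discovery rate 0.01), and likely doublets were removed with Scrublet in scanpy 1.11.5, in the place of scDblFinder. Nuclei over 400 genes and under 0.5% of mitochondrial UMIs were kept, up to the 95th percentile of genes and of UMIs, as in the study. Integration of both libraries used Seurat 5.3.0 (R 4.3.3) and 1994 features, without the members and pathway genes, and gave 24 clusters at resolution 1. Clusters were named from 23 marker lists where at least 3 markers, and 50% of a list, were found in 10% of nuclei and the mean log2 fold reached 1. The reference of this fold and a rule that leaves shallow clusters unnamed were set after the clusters were seen.

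UMIs were summed per class and library in Python 3.11.15 (numpy 2.4.6, scipy 1.17.1, pandas 2.3.3). CPM have exact Poisson intervals, log2 ratios exact binomial (Clopper-Pearson) intervals and ratios of ratios exact conditional intervals, all at 95% and for counting error only, since UMIs of 1 library are no replicates. Genes with 20 or more counts in all are called measured, and 1.5-fold is a size and no test. A gene at 0 was set at a floor of 3 counts. The share of free RNA is an upper limit, from the marker list of other cells that gave the lowest share, among lists with at least 1000 free RNA UMIs. The list that sets the limit can differ between the libraries, so the limits of the libraries are not like for like. Named are all members in each class with enough nuclei, some of the up to 2 highest and 2 lowest genes of each of 6 pathway lists, and the 5 genes most like each summed pattern, without predicted genes. The members and lists were chosen with earlier results of these data known. Ratios of single genes with their intervals, and the calling of nuclei, were run on simulated data. The simulated counts held counting error only, so they do not test the spread between nuclei or mice. Alternatives varied the calling, doublets, limits, free RNA, scaling (edgeR 4.0.16), clusters and weights. Duct-like epithelial, multiciliated, erythroid and mural nuclei were left out of the comparison, since a library held 0 of the first 3 classes and under 30 mural nuclei.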

Additional observations from a re-analysis of the deposited data

Results flagged for a closer look

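The class II sum moved in opposite directions in macrophage states, with log2 ratios of HF-HHT over HF-PBS of -0.35 in monocyte-like, 0.37 in F13a1+ and 1.20 in lipid-associated macrophages. Their intervals of counting error do not overlap, but the difference between states was not tested over mice, since each group gave 1 library.

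Free RNA, which belongs to no nucleus class, held 1591 CPM of the class II genes in HF-HHT against 1120 CPM in HF-PBS, and 3527 CPM of the class I genes against 1935 CPM. Duct-like epithelial nuclei, of which HF-PBS held 0 and HF-HHT 689, had a class II sum of 592 CPM, below the free RNA of their library.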

How the results depend on the processing

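No paired analysis was possible because each group gave 1 library. Of 280 summed ratios recomputed under the alternatives, 168 stayed within their counting interval, 110 left it and 2 past 1.5-fold turned, and of 1362 ratios of single members 1107, 245 and 10 did so. Of values whose main ratio was under 1.5-fold, 22 of 147 for sums and 98 of 630 for single members had the other sign, while 48 of 60 counts of members stayed within 1.5 times the main count and 12 did not. For macrophages, class II and class I log2 ratios were 0.844 and 1.23 with every barcode of at least 500 UMIs, 0.852 and 1.23 with doublets kept, 1.07 and 1.41 with free RNA subtracted, 1.13 and 1.44 without nuclei holding a B-cell or dendritic-cell marker, 0.849 and 1.18 with each nucleus weighing the same, 0.0922 and 0.603 with the same state weights in both libraries, 0.807 and 1.08 with TMM factors and 0.842 and 1.12 with median-of-ratios factors, and class II was 0.899 without upper limits. With those weights, H2-Aa, H2-Ab1 and H2-Eb1 turned to -0.0107, -0.0730 and -0.182. For monocyte-like macrophages, class II and class I were -0.454 and 0.483 with every barcode, -0.430 and 0.536 with doublets kept, -0.472 and 0.525 without upper limits, -0.508 and 0.510 with mitochondrial UMIs below 5%, -0.418 and 0.00483 with free RNA subtracted, -0.287 and 0.341 without marker-holding nuclei, -0.227 and 0.20 with each nucleus weighing the same and -0.426 and -0.000654 with median-of-ratios factors. For lipid-associated macrophages, class II was 1.10 with doublets kept and 1.02 with equal nuclei, and class II and class I were 1.39 and 1.01 with free RNA subtracted, 1.01 and 0.751 with TMM and 1.04 and 0.786 with median-of-ratios factors. For dendritic nuclei, class II was 0.524 with doublets kept, 0.155 with free RNA subtracted and 0.252 with TMM, class I was 0.672 with free RNA subtracted, and 0 members were higher at 2-fold.

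In Lyve1 resident macrophages, class I, H2-K1 and H2-D1 turned to -0.211, -0.548 and -0.409 with every barcode and to -0.196, -0.531 and -0.391 with doublets kept, where this state held 190 and 141 or 182 and 141 nuclei. H2-Aa in NK cells turned to 0.921 without marker-holding nuclei and 0.350 with each nucleus weighing the same, Cd74 in mesothelial nuclei to 0.0325 without upper limits, and the difference of Nlrc5 shares in T cells to -0.521 percentage points after thinning. The F13a1+ class II ratio ranged from 0.175 to 0.463, the T-cell one from -0.501 to 0.929 and the adipocyte class I ratio from 0.0880 to 0.801. TMM factors shifted all log2 ratios of a class by -0.388 to 0.0556 and median-of-ratios factors by -0.299 to -0.0100. Of 77 single ratios past 1.5-fold, 40 stayed past it in each alternative run and 37 did not, among them H2-Eb1 in monocyte-like (past it in 8 of 9), H2-K1 in F13a1+ (7 of 9), B2m in T cells (7 of 9), and Nlrc5 (8 of 10) and Cd74 (6 of 10) in adipocytes. The cause of these changes was not tested. NK cells gave no value without upper limits, and macrophage states, T, NK and both endothelial classes none at 14 clusters. NK, blood endothelial and lymphatic endothelial nuclei of HF-PBS and B cells of HF-HHT numbered under 100.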

Other observations

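Nuclei of classes found in HF-HHT alone held both sets of genes. In 689 duct-like epithelial nuclei, Cd74 was 222 CPM (205 to 239), Ciita 52.6 CPM (44.7 to 61.4), H2-K1 399 CPM (377 to 423) and Nlrc5 147 CPM (133 to 161), against 582, 52.8, 1590 and 188 CPM in free RNA of that library. In 120 multiciliated nuclei, the class II sum was 301 CPM (264 to 341), Ciita rested on 4 UMIs and Nlrc5 was 33.2 CPM (21.9 to 48.3). In 121 erythroid nuclei, the class II sum was 408 CPM (345 to 479) and the class I sum 799 CPM (710.3 to 897). All of these sums lay below those of free RNA, 1591 CPM for class II and 3527 CPM for class I.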
